A study of Mus musculus with 4 samples.

Results

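The mitochondrial ribosomal protein genes were described in mouse regulatory T (Treg) cells, CD4 T cells that express Foxp3 and hold immune responses in check. They were taken as every row of the deposited count table whose symbol begins with Mrpl or Mrps followed by a digit, leaving out pseudogene symbols that end in -ps and a number. The rule found 76 genes of 19044 in the table. They lie on 17 chromosomes, with 11 of them on chromosome 11. By current nomenclature 50 encode proteins of the large subunit and 25 of the small subunit. The remaining gene, Mrps36, carries the name but encodes a component of the alpha-ketoglutarate dehydrogenase complex.

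The mitochondrial ribosome (mitoribosome) translates the few messenger RNAs made from mitochondrial DNA, which encode core subunits of the respiratory chain and the ATP synthase. Its ribosomal RNAs come from mitochondrial DNA, while all of its proteins are encoded in the nucleus, made in the cytosol and imported. Many of them have a counterpart in the bacterial ribosome, and others were added in the mitochondrial lineage. Mitochondrial metabolism and mitochondrial translation are known to be needed by proliferating T cells and by Treg cells.

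The study compared 4 libraries of untreated Treg cells from spleen and peripheral lymph nodes, with 1 library per group. Mice of the genotype Ripk1fl/fl Foxp3-YFP-Cre gave an aTreg and an rTreg library, labelled Ripk1 knockout. Foxp3-YFP-Cre mice, labelled WT, gave the same pair. All 4 groups thus carried the Cre recombinase, which the Foxp3 locus drives, so that a floxed Ripk1 gene is cut in Foxp3-expressing cells. RIPK1 is a kinase and scaffold protein in death receptor signalling. The letters r and a, left unexplained by the labels, usually mean resting and activated. The sources used here give no age, sex or number of mice, no sorting gate and no list of floxed exons.

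Library totals ran from 17588754 to 20868319 counts. Foxp3 was between 619 and 694 CPM (a gene's counts over the library total scaled by the TMM factor, times a constant) in all 4 libraries. The CD8, NK and myeloid markers summed to at most 16.8 CPM per list. The B cell genes Ms4a1 and Pax5 were near 0, but Ighm was at 689 and 732 CPM in the KO-labelled aTreg and rTreg libraries, against 579 and 343 CPM in WT. Ripk1 was not lower in the knockout-labelled libraries: it was at 80.8 and 84.7 CPM in KO-labelled aTreg and rTreg, against 77.5 and 83.6 CPM in WT (adjusted p = 0.658, edgeR quasi-likelihood test). The libraries are therefore called KO-labelled throughout. Counts over the whole gene may hold reads from exons outside the deleted part, so Ripk1 does not settle the label in either direction. Xist, the RNA of the inactive X chromosome, was at 0.213 and 0.284 CPM in KO-labelled aTreg and rTreg, against 338 and 299 CPM in WT, and Y-linked genes were counted in all 4. The sex makeup of the libraries thus differed with genotype and cannot be told apart from it. The red cell markers Hba-a1 and Hbb-bs summed to 9.06 and 8.29 CPM in the KO-labelled aTreg and rTreg libraries, against 0.874 and 0.238 CPM in WT, and their part in the results was not tested.

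The promoters of 4 members are shown because these genes were higher in the KO-labelled libraries by every test run here and in the authors' deposited table. Each sequence is 300 bases of the gene's own strand from RefSeq (GRCm38.p6), with 250 bases before the annotated start and 50 after it. Capitals mark matches to 5 motifs searched on both strands: NRF1 as CGCNTGCG, ETS (the family of GABPA) as CCGGAAG, YY1 as AANATGGC, Sp1 as GGGCGG and the E-box as CACGTG. These factors are known to bind promoters of many nuclear genes for mitochondrial proteins. The windows lie at chr17:12916042-12916341 (minus strand) for Mrpl18, chr4:155802628-155802927 (plus strand) for Mrpl20, chr16:18876588-18876887 (minus strand) for Mrpl40 and chr11:97315466-97315765 (plus strand) for Mrpl45.
Mrpl18: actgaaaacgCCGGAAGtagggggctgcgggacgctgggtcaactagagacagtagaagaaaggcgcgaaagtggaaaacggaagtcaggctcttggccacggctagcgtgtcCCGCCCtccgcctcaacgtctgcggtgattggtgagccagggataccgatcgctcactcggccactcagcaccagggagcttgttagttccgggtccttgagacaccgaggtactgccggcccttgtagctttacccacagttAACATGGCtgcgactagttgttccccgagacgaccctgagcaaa
Mrpl20: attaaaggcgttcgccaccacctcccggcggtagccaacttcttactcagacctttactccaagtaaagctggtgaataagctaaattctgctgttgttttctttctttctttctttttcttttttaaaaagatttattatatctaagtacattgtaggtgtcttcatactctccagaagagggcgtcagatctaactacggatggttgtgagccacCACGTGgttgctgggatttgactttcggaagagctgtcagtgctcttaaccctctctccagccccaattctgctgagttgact
Mrpl40: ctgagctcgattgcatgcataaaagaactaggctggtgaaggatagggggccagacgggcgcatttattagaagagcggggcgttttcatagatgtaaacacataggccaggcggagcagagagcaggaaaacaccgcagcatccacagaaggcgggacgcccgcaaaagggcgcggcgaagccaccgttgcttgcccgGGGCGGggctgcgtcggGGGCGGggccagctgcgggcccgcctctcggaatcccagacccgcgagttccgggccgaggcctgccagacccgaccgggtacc
Mrpl45: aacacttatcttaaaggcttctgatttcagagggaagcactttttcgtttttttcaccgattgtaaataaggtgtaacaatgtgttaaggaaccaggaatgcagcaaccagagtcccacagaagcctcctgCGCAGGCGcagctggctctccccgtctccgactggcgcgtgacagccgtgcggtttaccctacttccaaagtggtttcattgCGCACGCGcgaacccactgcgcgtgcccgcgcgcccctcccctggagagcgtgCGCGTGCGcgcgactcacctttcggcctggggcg
Counted from the annotated start, the Mrpl18 window holds an ETS match at -240, an Sp1 match at -137 and a YY1 match at 7. In Mrpl20 the only match is an E-box at -33. Mrpl40 has Sp1 matches at -51 and -34. Mrpl45 has 3 NRF1 matches, at -119, -37 and 17. The 4 windows therefore do not share a motif of this set.

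RefSeq windows were given for 67 members, and none of the members lies on chromosome 18. An ETS match stood in 25 of the 67 (37.3%), against 23.5% of 7733 tested genes with a window and 8.86% of all 32851 windows of the same length. YY1 was matched in 21 (31.3%), against 11.3% of tested genes and 6.05% of all windows. NRF1 was matched in 20 (29.9%), against 21.5% of tested genes and 8.21% of all windows. Set against tested genes, Sp1 ran the other way, with 34 members (50.7%) against 71.0%, and it was matched in 35.7% of all windows. The E-box was matched in 5 (7.46%), against 12.6% of tested genes and 7.15% of all windows. A member was counted as matched if any of its windows held the motif, whereas the share of all windows counts each window by itself. Genes with several windows have more chances to match, so the members' shares and those of all windows are not like for like. The number of windows per tested gene is not given here. Motifs can overlap one another, and a match is a description of letters, not a bound site. Of the 18 members with a window that rose by genotype, 7 had an ETS match, 7 a YY1 match and 5 an NRF1 match. Of the 46 with a window that were not called, 17, 13 and 15 did. Sp1 was matched in 8 of the 18 and 25 of the 46, and the E-box in 3 and 2. These differences were not tested.

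The members were expressed at moderate levels. The median over the 76 genes was a mean of 24.6 CPM, and all but 1 passed the level minimum of a mean of 5 CPM, which left 75 members among 9680 tested genes. The exception was Mrps23, a small subunit protein, at 2.40 and 2.73 CPM in KO-labelled aTreg and rTreg and 2.04 and 2.76 CPM in WT. Divided by exonic length, mean levels ran from 1.40 CPM per kilobase for Mrpl47 to 50.3 CPM per kilobase for Mrpl52, a 36.0-fold range around a median of 9.97. Nearly all of these proteins stand once in the assembled ribosome. The lengths used take in every annotated exon, so they may exceed those of the expressed transcripts. The levels per kilobase thus do not settle how far the messenger RNAs depart from that equal share. Not scaled for length, the highest means were those of Mrpl24, Mrpl4, Mrpl52 and Mrpl9, and the lowest after Mrps23 were those of Mrpl47 and Mrps18b.

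Together the members took 0.219% and 0.214% of the counts of KO-labelled aTreg and rTreg, against 0.192% and 0.194% in WT. Their summed level was 2203 and 2132 CPM in KO-labelled aTreg and rTreg, and 1924 and 1926 CPM in WT. Both KO-labelled sums lay above both WT sums, and the WT libraries were nearly equal. The log2 ratio of the sums, KO-labelled over WT, was 0.20 in aTreg (0.18 to 0.22) and 0.15 in rTreg (0.13 to 0.17). The log2 ratio of the sums, aTreg over rTreg, was 0.05 in KO-labelled cells (0.03 to 0.07) and -0.0009 in WT (-0.02 to 0.02). Brackets give 95% intervals for counting error alone, since no group has a replicate.

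By genotype, the messenger RNAs of the mitoribosome were on balance modestly higher in the KO-labelled libraries in both states. The median log2 CPM ratio, KO-labelled over WT, was 0.23 over the members in aTreg, against 0.00 over all tested genes, and 0.17 in rTreg, against 0.01. A ratio above 0 was found for 60 of 75 members in aTreg and for 57 in rTreg. Over all 9680 tested genes it was found for 4853 in aTreg and 4920 in rTreg. In aTreg, 27 members had a log2 ratio of at least 0.32, where 21.0% of all tested genes did, and 1 was at least 0.32 below 0, where 19.8% were. In rTreg, 20 members were above by that size, against 19.7% of all tested genes, and 2 were below, against 17.3%. The counts above moved with the processing: upper-quartile scaling gave 13 in rTreg, and the deposited variance-stabilised values gave 8 in aTreg and 5 in rTreg. The matching shares of all tested genes are not given for these settings, so these counts have no background beside them. The rTreg median was 0.10 on the deposited values and 0.11 over the members that share no exon bases with another gene. No member was 2-fold apart in either state, whereas 6.12% of tested genes were in aTreg and 4.75% in rTreg. The members were thus shifted by a small amount, with a spread (SD of the log2 ratios 0.26 in aTreg and 0.25 in rTreg) narrower than that of all tested genes (0.54 and 0.48).

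**Figure D1:**
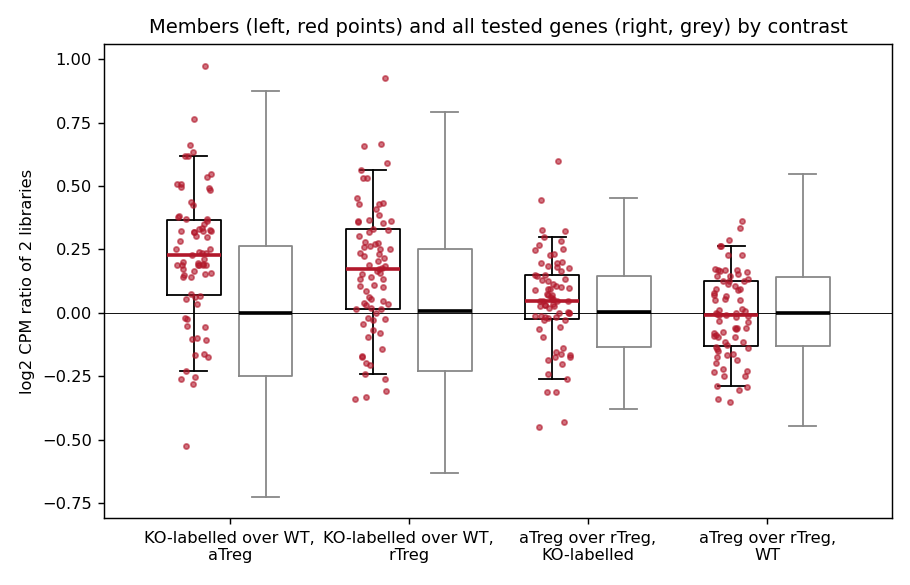
Log2 CPM ratios of 2 libraries (vertical axis) for the 4 contrasts (horizontal axis), with each tested member as a red point over its box on the left and all tested genes as the grey box on the right. Boxes span the middle 50% with the median as a line and whiskers reach the 5th and 95th percentiles; the members' medians are 0.23 and 0.17 in the genotype contrasts and 0.05 and -0.01 in the state contrasts.

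Both KO-labelled libraries lay above both WT libraries for 48 of 75 members, where 33.2% of all tested genes did. Both lay below for 6 members, where 31.9% of all tested genes did. In edgeR's quasi-likelihood test with state as a second term and Benjamini-Hochberg adjustment at 0.05, 22 members rose, where 24.4% of tested genes were called higher, and 3 fell, where 22.8% were called lower. The share of members that rose is close to that background, and the share that fell is well under it. The other 50 members were not called. The log2 changes of the 22 ran from 0.26 to 0.72, with a median of 0.43. With DESeq2 and the same terms 6 members rose, where 14.2% of tested genes were called higher, and 0 fell, where 12.0% were called lower. In edgeR without the state term 4 rose, against 9.60% of tested genes, and 0 fell, against 7.20%. The share of members that rose is below the background in both of these fits. The 20 genes of a fixed list of cell cycle genes all rose by genotype as well, with median log2 ratios of 1.90 in aTreg and 1.22 in rTreg. Mki67, a proliferation marker, was at 648 and 706 CPM in KO-labelled aTreg and rTreg, against 137 and 238 CPM in WT. Whether the share of dividing cells bears on the members' levels was not tested. In bulk libraries, more cells with a transcript and more transcript per cell cannot be told apart.

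Most of the called members belonged to the large subunit, which also holds 50 of the 75 tested members. Over all tested genes 24.4% were called higher and 22.8% lower. Of its 50 members, 18 rose and 2 fell; of 24 tested small subunit members, 4 rose and 1 fell. The median log2 ratio was 0.23 in aTreg and 0.22 in rTreg for the large subunit, and 0.19 and 0.09 for the small subunit. Of 45 members with a bacterial counterpart 16 rose and 2 fell, and of 29 tested mitochondria-specific members 6 rose and 1 fell. The differences between these subgroups were not tested.

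Mrpl18, a protein of the central protuberance of the large subunit, had the smallest adjusted p of all members. It was at 34.4 and 46.4 CPM in KO-labelled aTreg and rTreg, and at 24.2 and 24.4 CPM in WT. It stood 1.42-fold higher in aTreg and 1.90-fold higher in rTreg (log2 change 0.72, SE 0.12, edgeR adjusted p = 2.72e-04). Mrpl20, whose bacterial counterpart acts early in the folding of the large subunit RNA, was at 36.9 and 32.5 CPM in KO-labelled aTreg and rTreg, against 24.0 and 22 CPM in WT. It rose by a log2 change of 0.59 (SE 0.11, edgeR adjusted p = 5.21e-04). For both genes the lower KO-labelled library was above the higher WT library.

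Mrpl45, which sits at the exit of the nascent chain tunnel and ties the mitoribosome to the inner membrane, was at 37.8 and 38.3 CPM in KO-labelled aTreg and rTreg, against 26.8 and 24.2 CPM in WT. Its log2 change was 0.58 (SE 0.10, edgeR adjusted p = 5.94e-04). Mrpl40, another protein of the central protuberance, was at 29.6 and 27.5 CPM in KO-labelled aTreg and rTreg, against 17.4 and 19.0 CPM in WT. Its log2 change was 0.65 (SE 0.12, edgeR adjusted p = 7.01e-04). Mrpl18, Mrpl20, Mrpl45 and Mrpl40 are the genes whose promoters are shown above, and of these only Mrpl18 shares exon bases with another gene. The 141 shared bases are of Tcp1, a chaperonin gene on the opposite strand, which was at 200.3 and 199 CPM in KO-labelled aTreg and rTreg, against 159 and 164 CPM in WT. In the authors' deposited table, whose fold change is positive where WT is higher, they had log2 fold changes of -0.74 (Mrpl18), -0.60 (Mrpl20), -0.58 (Mrpl45) and -0.65 (Mrpl40), with adjusted p of 0.00579, 0.0135, 0.00987 and 0.00966 in that order. The authors' deposited table held no other member at an adjusted p of at most 0.05 in either direction, where 9.61% of its genes with an adjusted p were called higher in KO-labelled cells and 7.0% higher in WT.

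Mrpl54, a mitochondria-specific large subunit protein, was at 33.9 and 27.8 CPM in KO-labelled aTreg and rTreg, against 22 and 20.6 CPM in WT (log2 change 0.53, SE 0.11, edgeR adjusted p = 0.00195). Mrpl4, whose counterpart in other ribosomes lines the exit tunnel, was at 84.0 and 68.2 CPM in KO-labelled aTreg and rTreg, against 57.5 and 58.8 CPM in WT (log2 change 0.38, SE 0.08, edgeR adjusted p = 0.00237). Both stood highest in the KO-labelled aTreg library, with the KO-labelled rTreg library between it and WT. Mrpl35, a protein of the large subunit with a bacterial counterpart, was at 17.2 and 20.4 CPM in KO-labelled aTreg and rTreg, against 12.3 and 12.8 CPM in WT. Mrpl27, whose bacterial counterpart reaches toward the peptidyl transferase centre, was at 21.4 and 21.3 CPM in KO-labelled aTreg and rTreg, against 13.5 and 16.5 CPM in WT. Both of these rose (edgeR adjusted p = 0.005 for Mrpl35 and 0.00777 for Mrpl27). Mrpl27 shares 75 exon bases with Eme1, a gene of DNA repair that stood at 9.38 and 9.48 CPM in KO-labelled aTreg and rTreg, against 2.87 and 4.67 CPM in WT.

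**Figure D2:**
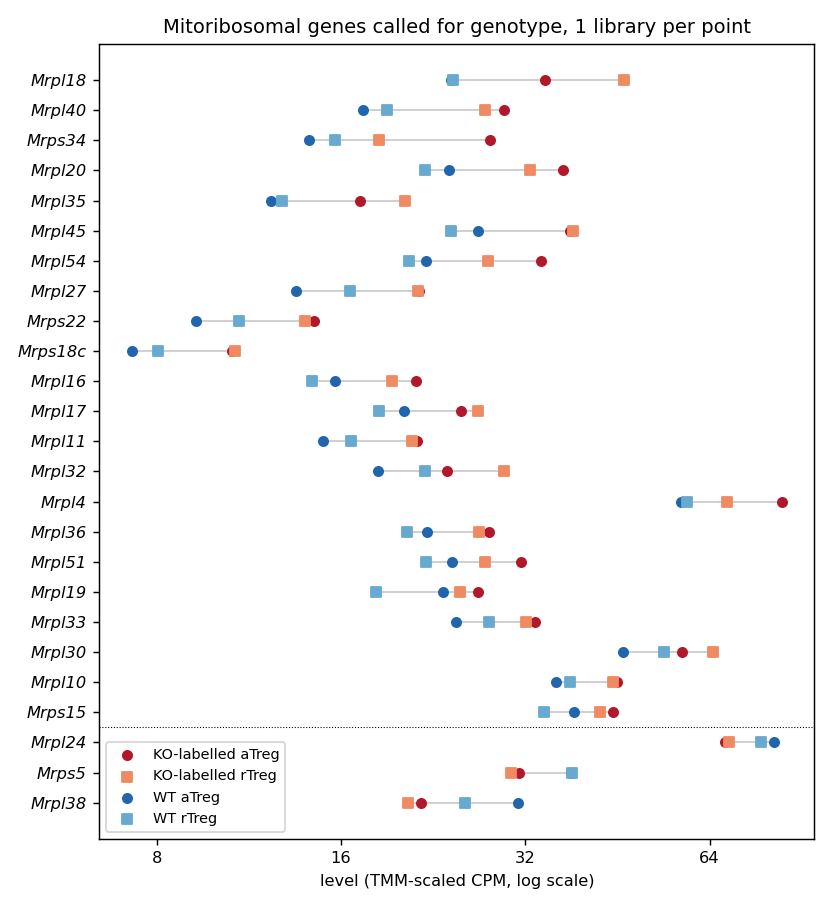
Level of each called member (rows, ordered by log2 change) in the 4 libraries, in CPM on a log2 axis, with KO-labelled libraries in red and orange and WT libraries in blue. Above the dotted line are the 22 members that rose and below it the 3 that fell; Mrpl18 spans 24.2 to 46.4 CPM.

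The stalk of the large subunit, which recruits the translation factors, was covered by Mrpl10, Mrpl11 and Mrpl12. Mrpl10, the stem of the stalk, was at 45.1 and 44.5 CPM in KO-labelled aTreg and rTreg, against 35.9 and 37.8 CPM in WT. Mrpl11, at the base of the stalk, was at 21.3 and 20.9 CPM in KO-labelled aTreg and rTreg, against 15.0 and 16.6 CPM in WT. Both rose, by log2 changes of 0.28 (edgeR adjusted p = 0.0228) and 0.42 (edgeR adjusted p = 0.0191). Mrpl12, the flexible stalk protein that occurs in several copies, was at 46.6 and 37.3 CPM in KO-labelled aTreg and rTreg, against 39.2 and 37.9 CPM in WT, and was not called (edgeR adjusted p = 0.351). Only its KO-labelled aTreg value lay above the other libraries.

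In the small subunit, Mrps34, a mitochondria-specific protein needed for the stability of the small subunit in mice, had the highest genotype ratio of all members in aTreg. It was at 28.0 and 18.5 CPM in KO-labelled aTreg and rTreg, against 14.2 and 15.6 CPM in WT. The fold was 1.97 in aTreg and 1.18 in rTreg (log2 change 0.62, SE 0.17, edgeR adjusted p = 0.00813), so 1 library carries most of it. In the annotation (GRCm38, chr17:24895116-24897502, plus strand), 1309 of its 2064 exonic bases overlap exons of Mapk8ip3 on the opposite strand and 763 overlap Nme3 on its own strand. Mapk8ip3 fell by genotype, at 246 and 221 CPM in KO-labelled aTreg and rTreg, against 305 and 314 CPM in WT. The sources used here do not say whether counting used the strand, so the Mrps34 level is uncertain. Mrps22, another mitochondria-specific small subunit protein, was at 14.4 and 14 CPM in KO-labelled aTreg and rTreg, against 9.28 and 10.9 CPM in WT, and rose (edgeR adjusted p = 0.0242). Mrps15, which has a bacterial counterpart, was at 44.5 and 42.4 CPM in KO-labelled aTreg and rTreg, against 38.4 and 34.3 CPM in WT, and rose by a log2 change of 0.26 (edgeR adjusted p = 0.0346).

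The paralogs Mrps18a, Mrps18b and Mrps18c all derive from 1 bacterial small subunit protein, though Mrps18a now sits in the large subunit. Nomenclature ties Mrps18c alone to the bacterial protein, so Mrps18a and Mrps18b were counted as mitochondria-specific above. Mrps18c rose, at 10.6 and 10.7 CPM in KO-labelled aTreg and rTreg, against 7.28 and 8.05 CPM in WT (log2 change 0.48, SE 0.18, edgeR adjusted p = 0.0463). Mrps18b was at 8.95 and 9.31 CPM in KO-labelled aTreg and rTreg, against 6.85 and 8.77 CPM in WT (edgeR adjusted p = 0.339). Mrps18a was at 26.5 and 24.1 CPM in KO-labelled aTreg and rTreg, against 23.5 and 23.6 CPM in WT (edgeR adjusted p = 0.481). All 3 had both KO-labelled libraries above both WT libraries, but the gap was called for Mrps18c alone, and the differences between the paralogs were not tested.

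Of the related large subunit proteins Mrpl37 and Mrps30, neither was called. Mrpl37 was at 46.4 and 46.8 CPM in KO-labelled aTreg and rTreg, against 52.2 and 46.2 CPM in WT. Mrps30 was at 26.5 and 32.9 CPM in KO-labelled aTreg and rTreg, against 25.5 and 25.6 CPM in WT. Mrpl37 overlapped between the genotypes, whereas Mrps30 stood apart mainly through the KO-labelled rTreg library. Mrpl44, which has a ribonuclease III-like fold, was at 18.6 and 17.5 CPM in KO-labelled aTreg and rTreg, against 16.2 and 15.0 CPM in WT (edgeR adjusted p = 0.217). Mrps36, not a ribosomal protein, was at 11.1 and 10.7 CPM in KO-labelled aTreg and rTreg, against 8.84 and 10.4 CPM in WT (edgeR adjusted p = 0.406).

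The 3 members that fell came from different places of the ribosome. Mrpl38, a mitochondria-specific protein of the central protuberance, was at 21.6 and 20.6 CPM in KO-labelled aTreg and rTreg, against 31.2 and 25.5 CPM in WT (log2 change -0.42, SE 0.12, edgeR adjusted p = 0.00981). Mrps5, a small subunit protein with a bacterial counterpart, was at 31.3 and 30.3 CPM in KO-labelled aTreg and rTreg, against 38.0 and 38.2 CPM in WT (log2 change -0.31, SE 0.10, edgeR adjusted p = 0.0218). Mrpl24, a protein near the tunnel exit, was at 67.9 and 68.9 CPM in KO-labelled aTreg and rTreg, against 81.4 and 77.7 CPM in WT (log2 change -0.22, SE 0.07, edgeR adjusted p = 0.0207). For each of the 3, both KO-labelled libraries lay below both WT libraries. Mrpl24 had the highest level of any member without scaling for length. It shares 594 of its 2255 exonic bases with Rrnad1 on the opposite strand. Mrpl2, a core protein near the peptidyl transferase centre, was at 24.8 and 22 CPM in KO-labelled aTreg and rTreg, against 29.6 and 26.4 CPM in WT, and was not called (edgeR adjusted p = 0.0697).

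The genotype ratios of the 2 states had the same sign for 62 of 75 members, against 8007 of 9680 tested genes. These ratios have no library in common between the states. Across the 75 members they correlated at r = 0.587, and across all tested genes at 0.868. Genes are not independent replicates, and the members cover a narrower range of ratios than all tested genes. The median half-width of a counting interval of 1 member's log2 ratio was 0.18 in aTreg and 0.19 in rTreg, close to the size of the median ratio itself.

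The genotype ratio differed most between the states for Mrps34, by 0.74 on the log2 scale, aTreg minus rTreg. Next came Mrpl13, by -0.61, and Mrpl28, by 0.54, both large subunit proteins with bacterial counterparts. Mrpl28 was at 36.1 and 26.5 CPM in KO-labelled aTreg and rTreg, against 31.4 and 33.5 CPM in WT. Its log2 ratio, KO-labelled over WT, was 0.20 in aTreg (counting interval 0.04 to 0.36) and -0.34 in rTreg (-0.51 to -0.17). Its KO-labelled rTreg library was the lowest of the 4 and its KO-labelled aTreg library the highest. Mrpl13 was at 28.4 and 38.8 CPM in KO-labelled aTreg and rTreg, against 28.8 and 25.7 CPM in WT. Its log2 ratio was -0.02 in aTreg and 0.59 in rTreg, with the KO-labelled rTreg library alone standing apart. Mrps11, a small subunit protein that shares 173 exon bases with Mrpl46, was at 23.2 and 19.2 CPM in KO-labelled aTreg and rTreg, against 16.4 and 19.5 CPM in WT. Mrpl43, a mitochondria-specific large subunit protein, was at 8.79 and 10.6 CPM in KO-labelled aTreg and rTreg, against 9.86 and 8.20 CPM in WT. It shares 507 of its 1520 exonic bases with Twnk on the opposite strand. With 1 library per group, a difference of the genotype ratio between states has no test.

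**Figure D3:**
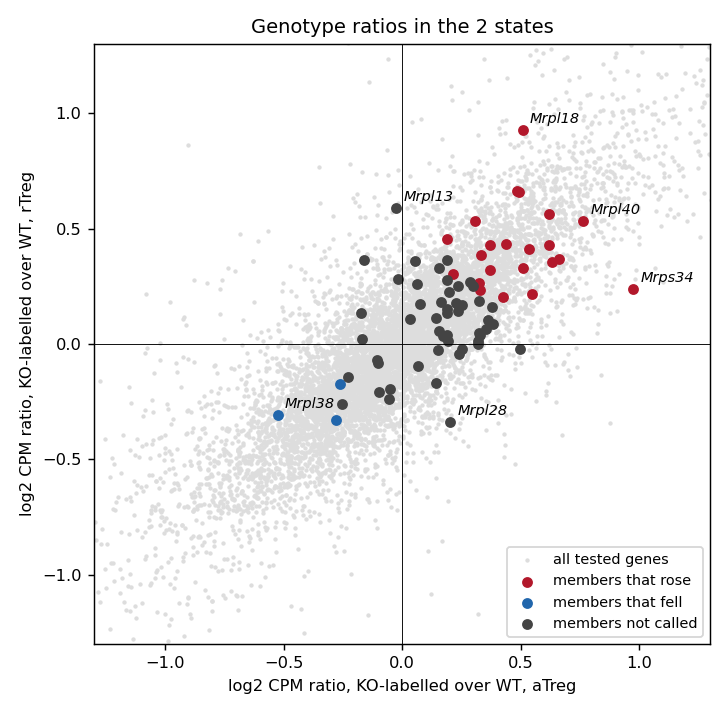
Log2 CPM ratio, KO-labelled over WT, in aTreg (horizontal axis) and in rTreg (vertical axis), with all tested genes in grey and the members in red (rose), blue (fell) and dark grey (not called); axes end at 1.3, beyond which some grey points lie. Most members sit in the upper right, with Mrps34 at 0.98 in aTreg and Mrpl18 at 0.93 in rTreg, and Mrpl13 and Mrpl28 stand off the diagonal.

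By state, aTreg over rTreg, the mitoribosome genes differed little. The median log2 ratio over the members was 0.05 in KO-labelled cells, against 0.00 over all tested genes, and -0.01 in WT, against 0.00. A ratio above 0 was found for 49 of 75 members in KO-labelled cells and for 35 in WT. Over all 9680 tested genes it was found for 4910 in KO-labelled cells and 4859 in WT. A log2 ratio of at least 0.32 was found for 3 members in KO-labelled cells, against 9.41% of tested genes, and for 2 in WT, against 10.7%. A ratio at least 0.32 below 0 was found for 2 members in KO-labelled cells, against 7.06% of tested genes, and for 2 in WT, against 8.70%. No member was 2-fold apart, against 1.08% of tested genes in KO-labelled cells and 2.59% in WT. Both aTreg libraries lay above both rTreg libraries for 8 members, where 14.1% of tested genes did, and below for 3, where 12.9% did.

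In edgeR's quasi-likelihood test 0 members were called higher in aTreg, where 7.91% of tested genes were, and 0 lower, where 5.44% were. At an unadjusted p under 0.05 edgeR had 1 member higher (Mrps12), against 14.2% of tested genes, and 3 lower (Mrpl30, Mrpl32 and Mrps17), against 12.2%. DESeq2 had 0 in either direction at that threshold, against 7.05% of tested genes higher and 5.40% lower. Mrps12, a protein of the decoding centre, was at 26.3 and 23.7 CPM in KO-labelled and WT aTreg, against 20.9 and 20.2 CPM in KO-labelled and WT rTreg. Mrps17, a small subunit protein with a bacterial counterpart, was at 28.6 and 29.7 CPM in KO-labelled and WT aTreg, against 31.8 and 37.6 CPM in KO-labelled and WT rTreg. For these genes the states did not overlap, though neither passed the adjusted threshold.

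The widest state ratios were found among KO-labelled libraries and belonged to genes already described. Mrps34 had a log2 ratio, aTreg over rTreg, of 0.60 in KO-labelled cells and -0.14 in WT. Mrpl28 had 0.45 in KO-labelled cells and -0.09 in WT. Mrpl13 had -0.45 in KO-labelled cells and 0.16 in WT, and Mrpl18 had -0.43 and -0.01. In WT the ratios ran only from -0.35 (Mrps18b) to 0.36 (Mrpl19, at 23.5 CPM in WT aTreg against 18.3 CPM in WT rTreg). Mrpl19 shares 1962 of its 5450 exonic bases with Gcfc2 on the opposite strand. Mrps6, a small subunit protein, had 0.03 in KO-labelled cells and 0.33 in WT, and Mrpl1, a large subunit protein, had 0.00 and -0.30. The state ratios of the 2 genotypes, with no library in common, had the same sign for 39 of 75 members, against 6671 of 9680 tested genes. They correlated at r = 0.117 across the members, against 0.651 across all tested genes.

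The other genes of the mitochondrial translation system were mixed in direction. By genotype, 24.4% of all tested genes were called higher and 22.8% lower. Among 5 mitoribosome genes with other names (Dap3, Ptcd3, Gadd45gip1, Chchd1 and Aurkaip1), 1 rose by genotype and none fell. It was Aurkaip1, a small subunit protein, at 86.8 and 75 CPM in KO-labelled aTreg and rTreg, against 63.0 and 56.5 CPM in WT (edgeR adjusted p = 2.30e-04). Dap3, a GTP-binding small subunit protein, was at 82.3 and 93.7 CPM in KO-labelled aTreg and rTreg, against 88.9 and 101 CPM in WT, and was not called. Of 23 tested factors that assemble the mitoribosome, 1 rose and 4 fell, with median log2 ratios, KO-labelled over WT, of -0.16 in aTreg and -0.15 in rTreg. Ddx28, an RNA helicase of large subunit assembly, rose by a log2 change of 0.68, and Gtpbp6, a GTPase of late assembly, fell by 0.52 on the log2 scale.

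Mitochondrial transfer RNA synthetases, which charge the transfer RNAs that the mitoribosome uses, had lower medians still. Of 17, 2 rose and 8 fell, with median log2 ratios of -0.30 in aTreg and -0.23 in rTreg. Here too the shares over all tested genes were 24.4% higher and 22.8% lower. Ears2, for glutamate, was at 9.49 and 9.42 CPM in KO-labelled aTreg and rTreg, against 21.4 and 21.1 CPM in WT (log2 change -1.17, edgeR adjusted p = 3.16e-05). Of 14 tested translation factors 3 rose and 1 fell. The elongation factor genes Tufm and Gfm1 rose by log2 changes of 0.30 and 0.36. Oxa1l, which inserts newly made proteins into the inner membrane, rose by 0.49. Lrpprc, which stabilises mitochondrial messenger RNAs, fell by 0.23 on the log2 scale.

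Of 16 tested genes for copying and expressing mitochondrial DNA 1 rose and 3 fell, where 24.4% of all tested genes rose and 22.8% fell. Their median log2 ratios, KO-labelled over WT, were 0.005 in aTreg and 0.13 in rTreg. Pnpt1 rose, by a log2 change of 0.27. Those that fell were Polrmt, the mitochondrial RNA polymerase, Polg, the DNA polymerase, and Twnk, the helicase, by 0.35, 0.42 and 0.51 on the log2 scale. The messenger RNAs and ribosomal RNAs made from mitochondrial DNA could not be described. None of their 15 genes was found in the deposited count table under the symbols searched. Of 10 tested regulators of mitochondrial biogenesis none rose and 2 fell by genotype, Ppargc1b by 0.61 and Esrra by 0.25 on the log2 scale. Gabpa, which encodes a factor that binds the ETS motif, was at 82.8 and 86.5 CPM in KO-labelled aTreg and rTreg, against 73.9 and 83.2 CPM in WT, and was not called. Of 77 cytosolic ribosomal protein genes 5 rose and 48 fell, against 24.4% and 22.8% of all tested genes. Their median log2 ratios were -0.30 in aTreg and -0.27 in rTreg, so the protein genes of the cytosolic and the mitochondrial ribosome had medians of opposite sign. The difference between any of these lists and the members was not tested.

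**Figure D4:**
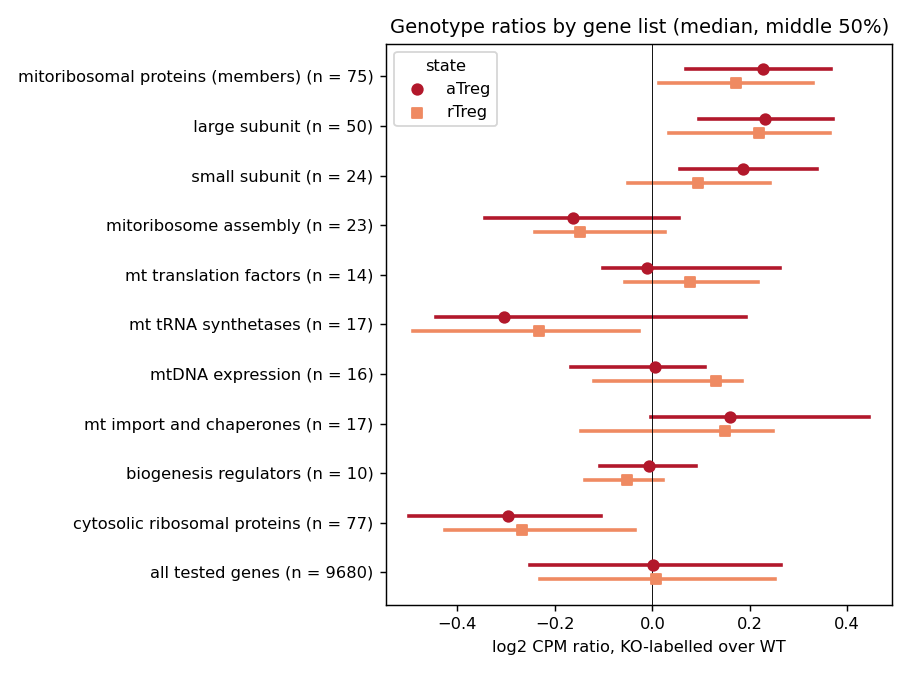
Median log2 CPM ratio, KO-labelled over WT, of each gene list (rows) in aTreg (circles) and rTreg (squares), with lines spanning the middle 50% of the list's genes and n the number tested. The members lie at 0.23 and 0.17, the transfer RNA synthetases at -0.30 and -0.23 and the cytosolic ribosomal proteins at -0.30 and -0.27.

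The members' mean profile over the 4 libraries, with each member's log2 CPM standardised, was 0.62 and 0.30 in KO-labelled aTreg and rTreg and -0.48 and -0.44 in WT. By correlation with it over the 4 libraries, the 5 most alike genes outside the members were Ndufb7, Krtcap2, Cox4i1, Sf3b4 and Med11. Ndufb7, a subunit of respiratory complex I, was at 108 and 93.7 CPM in KO-labelled aTreg and rTreg, against 66.0 and 67.3 CPM in WT. Cox4i1, a nuclear-encoded subunit of cytochrome c oxidase, was at 364 and 323 CPM in KO-labelled aTreg and rTreg, against 243 and 245 CPM in WT. With 4 points such likeness is common, and 214 of 9605 genes had a correlation above 0.99.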

How the data were processed

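Per the labels' protocols, RNA was extracted with TRIzol and made into 4 libraries with a SMARTer kit. Reads were processed with HISAT2 2.2.1 and featureCounts 2.0.1 on GRCm38, per the submitters' processing notes. Their annotation and strand setting are not given in the sources. The deposited table holds raw read counts. The other deposited table has variance-stabilised values and fold changes on a log2 scale. It also holds the authors' mean of scaled counts (a signal), their test statistic (a score) and the p-value and adjusted p-value of genotype, per the file headers.

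The 9680 genes that averaged 5 CPM or more, with 99.3% of counts, were scaled by TMM in edgeR 4.0.16 (R 4.3.3), with factors from 0.995 to 1.01. CPM are the deposited counts over the library total times that factor. Log2 ratios used a prior count of 2. Genotype and state were tested together with edgeR's quasi-likelihood method, which leaves 1 residual degree of freedom, with Benjamini-Hochberg adjustment over all tested genes at 0.05. "Rose" and "fell" refer to that test. That degree of freedom is the difference of the genotype ratio between the states, not a spread of replicates. Most of the variance estimate is borrowed from other genes (11.75 prior degrees of freedom in the genotype test). Whether both libraries of a genotype share mice is not stated, so a p-value reflects the spread among these libraries alone. Contrasts of 2 libraries have no test, and their intervals are exact binomial ones at 95%, for counting error only. Alternatives used DESeq2 1.42.0, other scalings and filters, and the deposited variance-stabilised values. The edgeR script was tested on simulated data.

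Exons and coordinates are from GENCODE M21 (GRCm38), and lengths are union exon lengths. By this annotation 32 members share exon bases with another gene, and only some of them are named for it above. The members, gene lists and tests were chosen with earlier results of these data known, and the list of cytosolic ribosomal proteins was drawn up from their symbols after the data were seen. Members named with values are the 4 highest and 4 lowest genotype ratios of each state, the 3 highest and 3 lowest state ratios of each genotype, the 6 called members per direction with the smallest adjusted p, the 3 per direction whose genotype ratio differed most between states, the highest and lowest levels, and a set chosen by structure. The other genes named, Mrps15, Mrpl30, Mrpl32, the overlapping genes and further called genes of the lists, were chosen after their values were seen. A few marker and list genes are not reported here by name.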

Additional observations from a re-analysis of the deposited data

Results flagged for a closer look

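Mrpl28 stood out because its genotype ratio had opposite signs in the 2 states, each with a counting interval that leaves out 0. The log2 ratio in aTreg minus that in rTreg was 0.54. With 1 library per group the difference was not tested.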

How the results depend on the processing

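The share of members that rose, set against that of all tested genes, changed side between settings. So did the balance of the few members past 0.32 by state. With library totals alone 2 members were above by that size in KO-labelled cells and 3 below, against 3 and 2 in the main run. No other result reversed its direction under any alternative run. The share that rose was close to the background in the main fit and below it with DESeq2 or without the state term. With no filter on low counts it was above the background: 24 members rose, where 14.8% of 19044 genes were called higher. At a mean of 1 CPM 22 rose, where 21.7% of 11810 genes were called higher. The number of members called for genotype depended most on the model: with DESeq2 and the same terms 6 rose and 0 fell (14.2% and 12.0% of all tested genes), and with only genotype in the model 4 rose and 0 fell (9.60% and 7.20%). Upper-quartile scaling gave 18 that rose and 5 that fell, where 21.0% and 27.6% of all tested genes did. Its medians were 0.19 in aTreg and 0.12 in rTreg (all tested genes -0.04 in both). With it 13 members had a genotype log2 ratio of at least 0.32 in rTreg. By state in WT 1 member reached that ratio, as with library totals alone. Without a filter on low counts 1 member was at least 0.32 below 0 in rTreg. Of the 25 called members, all 25 stayed called with library totals, a mean of 1 CPM or no filter, 23 with DESeq2 size factors and 21 with upper-quartile scaling. The deposited variance-stabilised values, which compress low levels, gave medians of 0.14 in aTreg and 0.10 in rTreg. On them 8 members in aTreg and 5 in rTreg reached 0.32 by genotype and 0 were as far below 0 in rTreg; by state 1 was above and 0 below in KO-labelled cells, and 0 above and 0 below in WT. For members without exon overlap, an alternative chosen after seeing the data, the medians were 0.11 for genotype in rTreg and 0.071 for state in KO-labelled cells. For the counts at a log2 ratio of 0.32, the shares of all tested genes under these alternatives are not given. The causes of the shifts between settings were not tested.

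The model with both terms compares the genotypes within states and the states within genotypes. No further block could be fitted because each group has 1 library, and no library could be left out without losing the residual degree of freedom. With counts of 115 to 1676 per tested member, the half-width of a single log2 ratio's counting interval ran from 0.099 to 0.38, with medians of 0.18 to 0.19 by contrast.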

Other observations

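Genes for mitochondrial import, chaperones and outer membrane channels, described as a list beside the mitoribosome, held 6 that rose and 3 that fell by genotype among 17. Over all tested genes 24.4% rose and 22.8% fell. The voltage-dependent anion channel genes Vdac1, Vdac2 and Vdac3 all rose, by log2 changes of 0.49, 0.36 and 0.70 (edgeR). Cs, which encodes citrate synthase, was at 279 and 271 CPM in KO-labelled aTreg and rTreg, against 176 and 178 CPM in WT. The import genes Tomm22 and Timm23 rose by 0.25 and 0.34, whereas Timm44 and the matrix chaperone genes Hspa9 and Hspe1 fell by 0.22, 0.21 and 0.33 on the log2 scale. The median log2 ratio of the list, KO-labelled over WT, was 0.16 in aTreg and 0.15 in rTreg, against 0.00 and 0.01 over all tested genes.

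By state, Tufm was the only one of 14 tested translation factors that was called, where 7.91% of all tested genes were called higher and 5.44% lower. Tufm rose in aTreg, at 101 and 82.9 CPM in KO-labelled and WT aTreg, against 83.9 and 67.5 CPM in KO-labelled and WT rTreg (edgeR adjusted p = 0.0134). Of the 20 cell cycle genes 5 fell in aTreg relative to rTreg, against 5.44% of all tested genes. Among them was Top2a, at 272 and 72.7 CPM in KO-labelled and WT aTreg, against 343 and 144 CPM in KO-labelled and WT rTreg.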
